A study of Mus musculus with 6 samples.

Results

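The genes described here are 10 components of the inflammasome and the interleukin-1 family, taken by gene symbol from the 24410 symbols of the deposited table: the sensors Nlrp3, Nlrc4 and Aim2, the adaptor Pycard, the caspases Casp1 and Casp4, the pore protein gene Gsdmd, the cytokines Il1b and Il18, and the receptor antagonist Il1rn. All 10 symbols were found, and all 10 were among the 11249 genes with at least 1 FPKM (fragments per kilobase of transcript, scaled to the mapped fragments of the library) in at least 3 libraries, which were tested. Il1rn met that filter through its 3 KO libraries and WT 3, since WT 1 and WT 2 lay below 1 FPKM. RNA had been sequenced from 3 wild-type (WT) and 3 Txnip -/- (KO) samples of C57BL/6 mice, both aged 5 months. Lineage-negative bone marrow cells of both genotypes had been cultured for 3 days with 10% serum, stem cell factor at 100 ng/mL and thrombopoietin at 20 ng/mL, and CD41+ cells had then been sorted. CD41 is the surface integrin subunit of the megakaryocyte lineage, the cells that release platelets. The labels do not say in which cells Txnip was lost, nor whether the samples of a genotype came from separate mice, so the p-values take in only the differences among these samples, some of which may be technical. "Pair" below means the WT and the KO library with the same replicate number.

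An inflammasome is a protein complex that myeloid cells assemble when a sensor meets a sign of infection or damage. The sensor, often through the adaptor ASC (encoded by Pycard), gathers and activates caspase-1, which cuts the inactive precursors of interleukin-1 beta and interleukin-18 and opens gasdermin D (Gsdmd) into a membrane pore through which the cytokines leave. The level of messenger RNA bears on how much precursor and sensor a cell can make, while assembly itself happens in protein. Txnip, the thioredoxin-interacting protein, is known to bind Nlrp3, and the comparison asks whether the RNA of this pathway differed in cells without it.

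Txnip measured 112, 228 and 143 FPKM across WT 1 to WT 3, against 0, 0.04 and 0 across KO 1 to KO 3, a difference of −7.26 on the log2(FPKM + 1) scale (SE 0.28; limma, adjusted p = 2.02e-05). Depth, estimated from the spacing of low FPKM values, was about 14600000 to 25800000 fragments in 5 libraries. For KO 2 the best spacing was less clear and rested on 58 genes, so its depth is not given. The Y-linked gene Ddx3y was at 22.8 to 41.7 FPKM in the libraries numbered 1 and 2 and listed at 0 in both numbered 3. The X-linked RNA Xist was at 48.1 FPKM in WT 3 and 91.6 in KO 3, and at or below 0.27 in the libraries numbered 1 and 2. By these genes the libraries numbered 3 read as female and the others as male, in both genotypes. The replicate number thus takes in this difference. The megakaryocyte genes Pf4 (465 to 1545 FPKM) and Itga2b, which encodes CD41 (83.2 to 152 FPKM), were present in each library. So were genes of other myeloid cells, among them the lysozyme gene Lyz2 (522 to 1533 FPKM) and the granule protease gene Ctsg (899 to 2387 FPKM). In such a mixture, fewer cells of a type and less RNA per cell cannot be told apart.

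None of the 10 genes passed the test between genotypes. With limma, 0 of 10 had an adjusted p under 0.05, against 0.0178% of all genes tested, and 0 of 10 had an unadjusted p under 0.05, against 0.676%. With the replicate number as a block in the model, 0 of 10 passed, against 0.0267%; at an unadjusted p under 0.05 there were 3 of 10, Nlrp3, Gsdmd and Il1rn, against 6.93% of all genes. The 3 KO libraries all lay above the 3 WT libraries for 1 of the 10, Gsdmd, against 3.32% of all genes, and all below for 0, against 1.03%. The KO value was the higher one in 3 of 3 pairs for 3 genes, Nlrp3, Gsdmd and Il1rn, against 20.4% of all genes, and the lower one in 3 of 3 pairs for 1, Casp4, against 8.68%. The median difference of the 10 genes was 0.19 on the log2(FPKM + 1) scale, against 0.06 for all genes tested, and 9 of the 10 differences were above 0, against 63.4% of all genes. These counts describe the 10 genes and were not tested as a set.

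**Figure D1:**
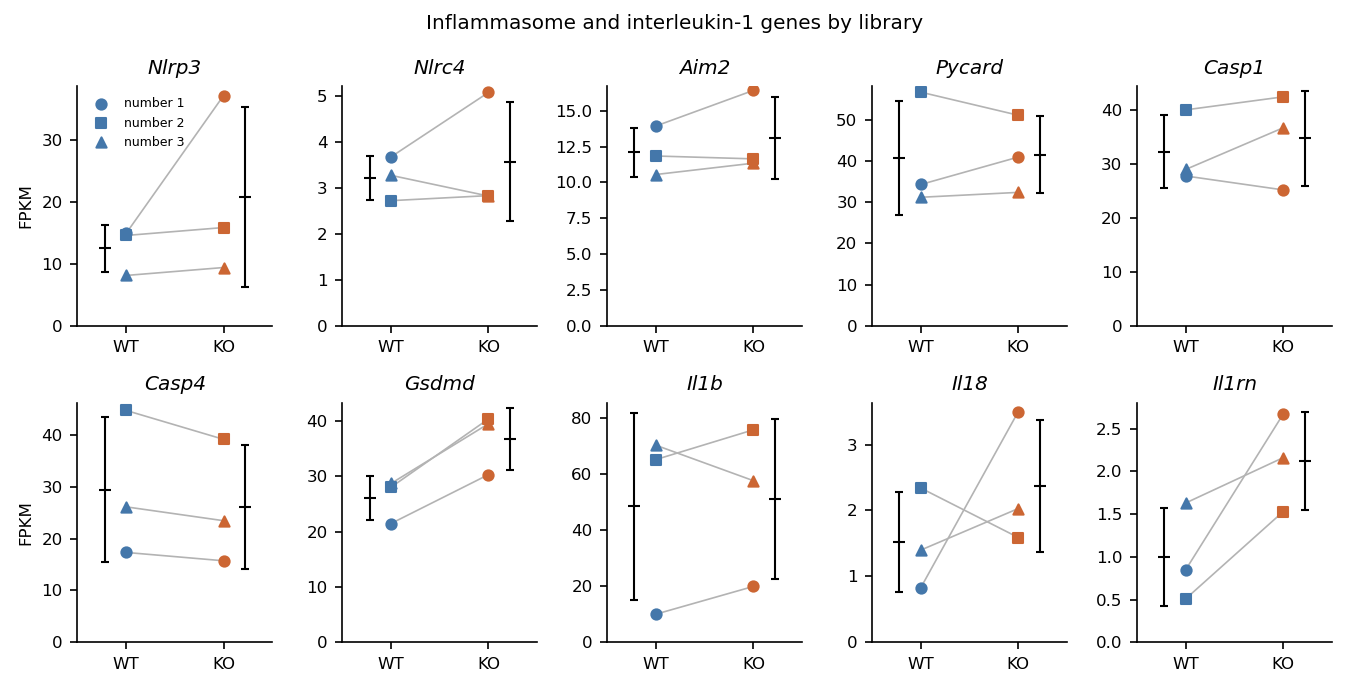
FPKM of the 10 genes in each library, WT in blue and KO in orange, with a separate linear axis from 0 for each gene. Symbols mark the replicate number, grey lines join the libraries of a pair, and black bars beside the points are the mean and SD of the 3 libraries of a genotype. Gsdmd is the gene whose 3 KO libraries all lie above its 3 WT libraries; for Il1b, both libraries numbered 1 lie far below the other 4.

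By mean FPKM over the 6 libraries, a scale that is corrected for transcript length, the order of levels was Il1b (49.8), Pycard (41.1), Casp1 (33.5), Gsdmd (31.4), Casp4 (27.7), Nlrp3 (16.7), Aim2 (12.6), Nlrc4 (3.4), Il18 (1.95) and Il1rn (1.56). Of the 9 neighbouring pairs of genes in that order, Aim2 and Nlrc4 were the one pair whose ranges over the libraries did not overlap. Aim2 lay above Nlrc4 in 6 of 6 libraries and Nlrc4 above Il18 in 6 of 6, while Il18 exceeded Il1rn in 3 of 6. Il1b, Pycard, Casp1 and Gsdmd stood between percentiles 75.0 and 84.5 of mean FPKM among the genes tested, whereas Il18 stood at 7.8 and Il1rn at 5.0. Interleukin-1 beta, the adaptor, caspase-1 and the pore thus lay well above the median tested gene, and interleukin-18 lay near the filter.

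The sensors come first. Nlrp3, which responds to potassium loss and many other signs of damage, read 14.9, 14.6 and 8.14 FPKM across WT 1 to WT 3, against 37.2, 15.9 and 9.42 across KO 1 to KO 3. KO 1 stood far above the other 5 libraries, and those of both genotypes overlapped. The difference was 0.52 (SE 0.45; limma, adjusted p = 1.00), with 1.26, 0.11 and 0.19 in pairs 1 to 3. It was 0.01 without KO 1, 0.26 without WT 3 and 0.95 without KO 3. With the replicate block the SE was 0.22 (limma, unadjusted p = 0.0351, adjusted p = 0.69). With the block and without pair 2 the difference was 0.73 and passed (limma, adjusted p = 0.0415), in a fit on 4 libraries that called 142 of all genes, against 3 in the blocked fit on all 6; without pair 1 it was 0.15. Without the block, the 95% interval of the difference on all 6 libraries was −0.51 to 1.56. This spans a ratio of 0.70 to 2.94 between the genotypes on the FPKM + 1 scale. A lower level in KO and a higher one are both within that interval. With the block on all 6 libraries it was 0.04 to 1.00. That range holds only a higher level in KO, but it is not adjusted for the many genes tested.

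Like Nlrp3, most markers of the monocyte, macrophage and dendritic lineages had a higher level in KO 1 than in WT 1. The median difference of their 19 tested members (of 20 listed) was 1.03 in pair 1, 0.33 in pair 2 and −0.01 in pair 3. The pooled difference was above 0 for 18 of 19, against 63.4% of all genes tested. KO was higher in 3 of 3 pairs for 6 of the 19, against 20.4%, and the genotypes overlapped for all but 0 of them. With the replicate block 7 of 19 had an unadjusted p under 0.05 (limma), against 6.93%, and 0 passed after adjustment. The summed FPKM of the list ran from 1211 to 2278 in WT and from 1632 to 2589 in KO, with WT 1 the lowest and KO 1 the highest of the 6 libraries. No marker of the list was at 0 in every library. The part of these cells in the Nlrp3 values was not tested.

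Aim2, which binds DNA in the cytosol, read 13.9, 11.8 and 10.6 FPKM across WT 1 to WT 3, against 16.4, 11.6 and 11.3 across KO 1 to KO 3. Its groups overlapped and its range was narrow, the highest library being 1.56 times the lowest. The difference was 0.10 (SE 0.24; limma, adjusted p = 1.00). Nlrc4, which with the Naip proteins detects bacterial flagellin and secretion needles, read 3.67, 2.72 and 3.27 FPKM across WT, against 5.07, 2.83 and 2.82 across KO, in order of replicate number. KO 1 was again the highest library, and the rest overlapped. Its difference was 0.09 (SE 0.28; limma, adjusted p = 1.00), and it was −0.02 after quantile normalization, so its direction depends on the scaling.

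The common adaptor and the caspases varied more by replicate number than by genotype. Pycard read 34.3, 56.7 and 31.2 FPKM across WT 1 to WT 3, against 40.9, 51.1 and 32.4 across KO 1 to KO 3, highest in both libraries numbered 2. Casp1, the protease that cuts both cytokine precursors, read 27.7, 39.97 and 28.9 FPKM across WT, against 25.2, 42.4 and 36.7 across KO. Their differences were 0.05 (SE 0.28) and 0.09 (SE 0.26), both with a limma adjusted p of 1.00. The intervals ran from −0.59 to 0.69 and from −0.49 to 0.68. With the replicate block they ran from −0.28 to 0.38 and from −0.24 to 0.43. Neither gene separated the genotypes.

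Casp4, also called caspase-11 in the mouse, binds bacterial lipopolysaccharide directly and cuts gasdermin D without caspase-1. It read 17.3, 44.7 and 26.1 FPKM across WT 1 to WT 3, against 15.7, 39.1 and 23.4 across KO 1 to KO 3, so that each KO library lay just below its WT partner while libraries of different number differed up to 2.84 times. The pair differences were −0.13, −0.19 and −0.15, and the pooled difference −0.16 (SE 0.40; limma, adjusted p = 1.00; SE 0.14 and adjusted p = 0.844 with the replicate block). With libraries rescaled to a common FPKM sum the difference was 0.02, so the direction of Casp4 depends on the scaling. The FPKM sum was 1131641 in WT 2, against 715205 to 805730 in the other libraries. This rescaling thus mainly lowers WT 2 relative to the others. Casp12, a relative that lies next to Casp4 and was singled out after its values were seen, showed the same order, at 1.55, 7.13 and 5.50 FPKM in WT and 1.26, 5.47 and 4.40 in KO.

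Gsdmd, the pore through which interleukin-1 leaves and the cell can die, was the gene with the largest share of its variation between genotypes among the 10. It read 21.5, 28.0 and 28.7 FPKM across WT 1 to WT 3, against 30.3, 40.4 and 39.5 across KO 1 to KO 3. The lowest KO library lay above the highest WT library, and the pair differences were 0.48, 0.51 and 0.45. Gsdmd averaged 26.1 ± 3.99 FPKM over WT, against 36.7 ± 5.57 over KO (SD, n = 3 per genotype), a difference of 0.48 (SE 0.22; limma, unadjusted p = 0.0573, adjusted p = 1.00). With the replicate block the SE was 0.14 and the unadjusted p 0.00617, but the adjusted p was 0.637, so the call did not change. The value lay between 0.35, without WT 1, and 0.61, without KO 1, when 1 library was left out, and was 0.44 after quantile normalization and 0.65 with libraries rescaled to a common FPKM sum.

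**Figure D2:**
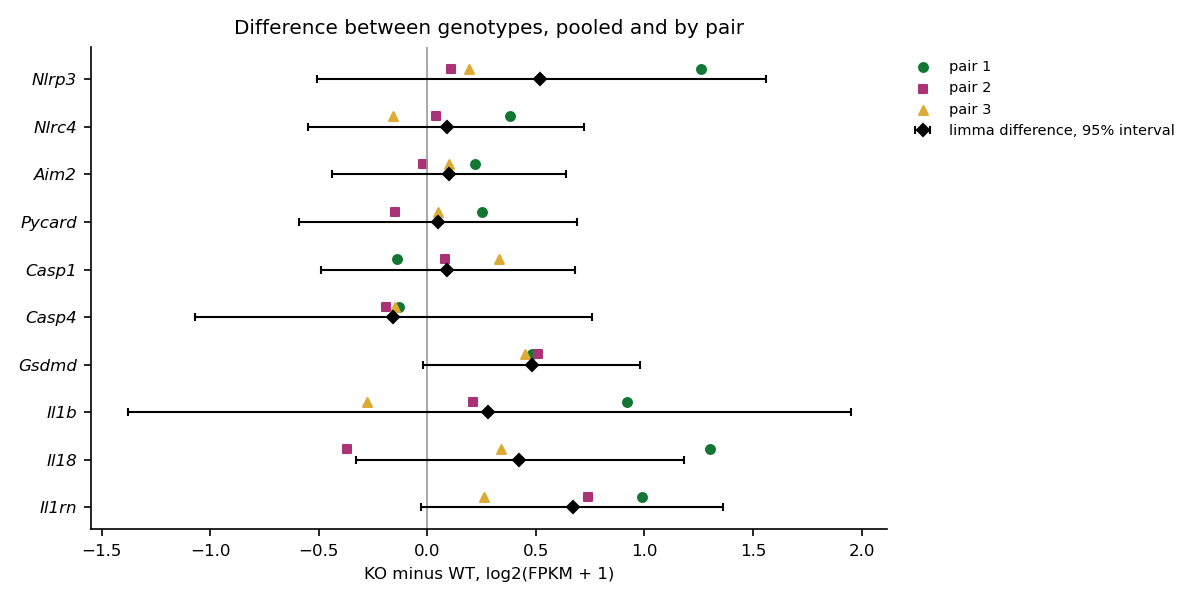
Difference between KO and WT of each gene on the log2(FPKM + 1) scale. Black diamonds and bars are the limma difference and its 95% interval without the replicate block, and coloured symbols are the differences in pairs 1 to 3. For Gsdmd the pair differences lie between 0.45 and 0.51 and for Casp4 between −0.19 and −0.13, while those of Nlrp3 reach from 0.11 to 1.26.

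Il1b encodes the precursor of interleukin-1 beta, the main fever-inducing product of the pathway. It read 10.1, 65.2 and 70.3 FPKM across WT 1 to WT 3, against 19.9, 75.8 and 57.6 across KO 1 to KO 3. Both libraries numbered 1 stood well below the other 4, and the genotypes overlapped. The difference was 0.28 (SE 0.73; limma, adjusted p = 1.00), with 0.92, 0.21 and −0.28 in the 3 pairs. Its interval without the replicate block, −1.38 to 1.95, was the widest of the 10, and with the block it was −0.17 to 0.74. The difference was −0.59 without WT 1 and 0.84 without KO 1, fits that leave a low library numbered 1 in only 1 genotype. With the block and without pair 1 it was −0.03, so its direction depends on the libraries used.

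Il18, the precursor of interleukin-18, which drives interferon gamma in lymphocytes, read 0.83, 2.34 and 1.40 FPKM across WT 1 to WT 3, against 3.50, 1.59 and 2.03 across KO 1 to KO 3. KO 1 and WT 2 were the highest libraries and WT 1 the lowest, the genotypes overlapped, and pair 2 went the other way from pairs 1 and 3 (1.30, −0.37 and 0.34). The difference was 0.42 (SE 0.33; limma, adjusted p = 1.00), a scale on which the change of a gene this low is understated. It was 0.19 without KO 1, 0.21 without WT 1 and 0.65 without WT 2.

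Il1rn encodes the receptor antagonist, which occupies the interleukin-1 receptor without signalling. It read 0.85, 0.51 and 1.63 FPKM across WT 1 to WT 3, against 2.67, 1.53 and 2.16 across KO 1 to KO 3. Each KO library lay above its WT partner, but KO 2 was below WT 3. The difference was 0.67 (SE 0.31; limma, unadjusted p = 0.0581, adjusted p = 1.00), with 0.99, 0.74 and 0.26 in the 3 pairs; with the replicate block the adjusted p was 0.683. With a pseudocount of 0.1 in place of 1 the difference was 1.12.

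The ratio of the agonist to its antagonist within a library does not depend on how libraries are scaled. Il1b was 11.8, 128 and 43.1 times Il1rn in WT 1 to WT 3 and 7.47, 49.5 and 26.7 times in KO 1 to KO 3, both per transcript length. The ratio was lower in KO in 3 of 3 pairs, and the groups overlapped, with the libraries numbered 1 lowest in both. Its denominator is near the filter, so the 128 of WT 2 rests on an Il1rn value of 0.51 FPKM. Gsdmd relative to Casp1 was 0.774, 0.701 and 0.991 in WT and 1.2, 0.952 and 1.08 in KO, higher in 3 of 3 pairs. Nlrp3 relative to Pycard was 0.435, 0.258 and 0.261 in WT and 0.908, 0.311 and 0.291 in KO, also higher in 3 of 3 pairs, with KO 1 standing apart. In all, 10 ratios were computed, and most of them went one way in every pair. Nlrp3 over Aim2, Gsdmd over Pycard and Casp4 over Casp12 were also higher in KO in 3 of 3 pairs. The genotypes overlapped for all 10 ratios. How often ratios of other genes go one way in every pair was not computed. Casp1 over Casp4 and Il1r2 over Il1r1 were higher in KO in 2 of 3 pairs, and Il18bp over Il18 and Il1b over Il1a in 1 of 3. The ratios were chosen after the values of the genes were seen and were not tested.

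Of the variation of each gene over the 6 libraries, on the log2(FPKM + 1) scale, the replicate number held 97.8% for Casp4, 93.0% for Pycard, 92.7% for Il1b, 87.6% for Aim2 and 85.2% for Casp1. The median over all genes tested was 73.5%, and Casp4 stood at percentile 96.8 of them. Genotype held 63.2% for Gsdmd and 58.4% for Il1rn, at percentiles 97.7 and 97.0, where the median gene had 5.57%. For Nlrp3 the number held 68.6% and genotype 15.6%. Il18 was the exception, with 1.69% for the number and 71.1% left over. Some markers of megakaryocytes also followed the number, the platelet factor gene Pf4 with 94.7%, while Gp5 (11.7%) and Gp1bb (22.9%) lay below the median gene. Itgb3, with 98.4%, went the other way from Pf4 and was highest in WT 1 and KO 1, at 45.5 and 41.5 FPKM. The summed FPKM of the list, to which Pf4 added the most, was 667 in WT 1 and 702 in KO 1. These were the lowest of each genotype, as was Il1b, against 1050 to 1914 in the other 4 libraries. The part of cell composition in the Il1b and Casp4 values was not tested.

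**Figure D3:**
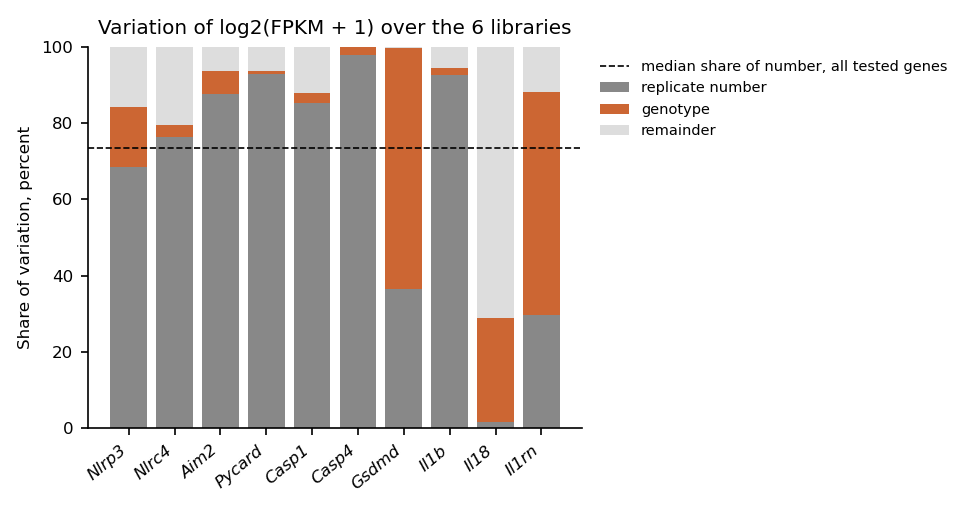
Share of the variation of log2(FPKM + 1) over the 6 libraries that lies between replicate numbers (grey), between genotypes (orange) and in neither (light grey), for each of the 10 genes, in percent. The dashed line is the median share of the number over all genes tested, 73.5%. Gsdmd and Il1rn have the largest orange shares, 63.2% and 58.4%, and Casp4 the largest grey one, 97.8%.

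The sequence upstream of the start site is shown for Il1b and Casp4, which varied widely with the replicate number, and for Casp1, which lies next to Casp4 on chromosome 9. RefSeq's table of mouse promoters (build GRCm38.p6) held 9 of the 10 genes. The 250 bases before the first listed start of each were searched on both strands for an Ets core (GGAAGT, the type of site that the myeloid factor PU.1 binds), the AP-1 site (TGANTCA), the NF-kB consensus and the TATA box (TATAAA). Capitals mark the matches, which on the other strand read as the reverse complement. The build differs from the mm9 of the deposited values, so these coordinates are not those of the counted transcripts.
Il1b, chr2:129371140-129371389, minus strand: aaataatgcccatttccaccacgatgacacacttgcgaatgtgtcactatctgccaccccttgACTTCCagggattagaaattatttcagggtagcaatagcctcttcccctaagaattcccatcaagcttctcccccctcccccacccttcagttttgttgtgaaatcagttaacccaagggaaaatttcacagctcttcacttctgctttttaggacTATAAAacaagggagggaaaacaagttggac
Casp4, chr9:5308599-5308848, plus strand: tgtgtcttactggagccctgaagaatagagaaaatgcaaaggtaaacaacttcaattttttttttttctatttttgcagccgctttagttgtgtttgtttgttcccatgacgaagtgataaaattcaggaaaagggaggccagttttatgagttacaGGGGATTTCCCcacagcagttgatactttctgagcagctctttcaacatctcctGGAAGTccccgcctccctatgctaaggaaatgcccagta
Casp1, chr9:5298267-5298516, plus strand: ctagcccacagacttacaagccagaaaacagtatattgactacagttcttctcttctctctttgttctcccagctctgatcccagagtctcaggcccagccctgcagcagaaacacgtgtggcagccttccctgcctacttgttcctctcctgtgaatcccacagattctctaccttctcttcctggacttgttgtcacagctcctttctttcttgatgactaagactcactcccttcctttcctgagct

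The Il1b window holds a TATA box at positions −31 to −26 from the start and an Ets core, on the other strand, at −187 to −182. The Casp4 window holds an Ets core at −39 to −34 and a stretch at −93 to −83 that matches the NF-kB consensus in 2 overlapping registers, 1 base apart. In the Casp1 window none of the 4 motifs was found, which says only that these letters are not in these 250 bases. Over 27025 promoter windows of the same length, the Ets core was in 20.0%, the AP-1 site in 6.87%, the NF-kB consensus in 3.75% and the TATA box in 13.0%. Of the 9 genes matched, 5 had the Ets core, 1 the AP-1 site (Il1rn), 1 the NF-kB consensus (Casp4) and 2 the TATA letters (Il1b and Il18). The Il18 match was on the other strand and farther from the start, at −175 to −170, so it is a match of letters only. A match describes the letters and was not linked to the binding of a factor.

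Other genes of the pathway were taken by role from lists of sensors, of the adaptor, caspases and pore, and of interleukin-1 family ligands, receptors and signalling proteins. With limma, 0 genes of any of the 5 lists passed, with or without the replicate block, and 0 had an unadjusted p under 0.05 without it. With the block, an unadjusted p under 0.05 was reached by 2 of 9 tested sensors (Nlrp3 and Mefv), 2 of 13 genes of the adaptor, caspase and pore list (Gsdmd and Brcc3), 1 of 5 ligands (Il1rn), 0 of 9 receptors and 1 of 12 signalling genes (Tab1), against 6.93% of all genes tested. The counts of higher and lower values that follow are to be read beside all genes tested, of which 63.4% had the higher value in KO. Of 12 sensors 9 were tested, 7 with higher and 2 with lower values in KO (median 0.18). That median was −0.06 without KO 1 and 0.37 without KO 3. The pair medians were 0.52, 0.04 and 0.04, and with the block and without pair 1 the median was 0.01. Its size thus rests mostly on pair 1. Mefv, the gene of pyrin, averaged 6.42 ± 2.51 FPKM over WT, against 9.56 ± 1.26 over KO (SD, n = 3 per genotype), a difference of 0.55 (SE 0.28), with WT 3 among the KO libraries. Nlrp1b read 1.55, 0.47 and 0.89 FPKM across WT 1 to WT 3, against 4.49, 0.59 and 1.07 across KO 1 to KO 3, with KO 1 apart as for Nlrp3; its reads may be shared with its paralog Nlrp1a. The flagellin receptors Naip5 (a difference of 0.18) and Naip6 (0.26) are near-identical relatives, so their single values are uncertain, and both were highest in KO 1.

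Of the 13 genes of the adaptor, caspase and pore list, all tested, 5 had higher and 8 lower values in KO (median −0.01, and −0.11 to 0.11 when 1 library was left out). Beyond the members, Brcc3, the enzyme that removes ubiquitin from Nlrp3, averaged 33.7 ± 14.6 FPKM over WT, against 24.5 ± 4.09 over KO (SD, n = 3 per genotype), a difference of −0.38 (SE 0.30), where WT 2 at 50.6 FPKM stood apart; without WT 2 it was −0.06. The membrane channel gene Panx1 differed by −0.23 (SE 0.23), the ATP-gated channel gene P2rx7, whose opening lets potassium out, by 0.25 (SE 0.31), and Pstpip1, a partner of pyrin, by 0.12 (SE 0.22). The P2rx7 difference was 0.05 without KO 1 and 0.58 without KO 3, and the Panx1 difference −0.06 without WT 3. All 4 overlapped between the genotypes.

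Of the 10 ligand genes 5 were tested, and all 5 had values above 0 in the difference (median 0.28, and 0.12 to 0.48 when 1 library was left out), with pair medians of 0.92, −0.01 and 0.06. With the block and without pair 1 the median was −0.02. Il1a, the alarm cytokine next to Il1b, was at 1.47 ± 0.80 FPKM in WT and 1.61 ± 0.15 in KO, and Il1f9, the interleukin-36 gamma gene, at 1.19 ± 0.47 and 1.55 ± 0.52 (SD, n = 3 per genotype). Il1f5, Il1f6, Il1f8 and Il1f10, relatives of Il1f9, were listed at 0 in all 6 libraries, and Il33 stayed at or below 0.11 FPKM. Il1b was thus the one ligand at more than a few FPKM.

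Receptors were split, with 4 of 9 higher and 5 lower (median −0.06; 0.06 with libraries rescaled to a common FPKM sum, and −0.26 to 0.06 when 1 library was left out). The signalling receptor Il1r1 averaged 4.78 ± 0.56 FPKM over WT, against 3.96 ± 0.31 over KO, and the shared chain Il1rap 8.01 ± 1.02 and 6.72 ± 1.04 (SD, n = 3 per genotype), each lower in KO in 3 of 3 pairs, with overlapping groups and differences of −0.22 (SE 0.23) and −0.23 (SE 0.23). The decoy receptor Il1r2 read 3.20, 13.1 and 3.86 FPKM across WT 1 to WT 3, against 7.21, 9.33 and 4.55 across KO 1 to KO 3, high in both libraries numbered 2. Il1rl1, the interleukin-33 receptor of mast cells and basophils, read 28.0, 16.8 and 16.3 FPKM across WT, against 29.6, 12.9 and 11.4 across KO. The 9 tested mast cell and basophil markers had pair medians of −0.17, −0.33 and −0.57, and their summed FPKM ran from 1051 to 1544 in WT and from 628 to 1409 in KO, highest in both libraries numbered 1 as for Il1rl1. Their part in the Il1rl1 values was not tested.

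Of 12 signalling genes, all tested, 10 had higher and 2 lower values (median 0.10). That median was −0.03 without KO 1, 0.01 without WT 2 and 0.25 without WT 1, in fits that leave a library without its partner. The pair medians were 0.10, 0.05 and 0.08, and with the block and without pair 1 the median was 0.09. Tab1, which activates the kinase Tak1 below the receptor, read 11.4, 9.63 and 11.9 FPKM across WT 1 to WT 3, against 14.3, 16.0 and 14.5 across KO 1 to KO 3. As with Gsdmd, each KO library lay above each WT library, with a difference of 0.41 (SE 0.21; limma, adjusted p = 1.00). The receptor kinase genes Irak2 and Irak4 differed by 0.26 (SE 0.27) and 0.22 (SE 0.24), and the inhibitor Tollip by 0.12 (SE 0.22), with overlapping groups. Rescaling libraries to a common FPKM sum moved the median of all genes from 0.06 to 0.22, and the medians of the 5 lists then lay between 0.06 and 0.46. That rescaling mainly lowers WT 2, whose FPKM sum was the largest, relative to the other libraries.

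**Figure D4:**
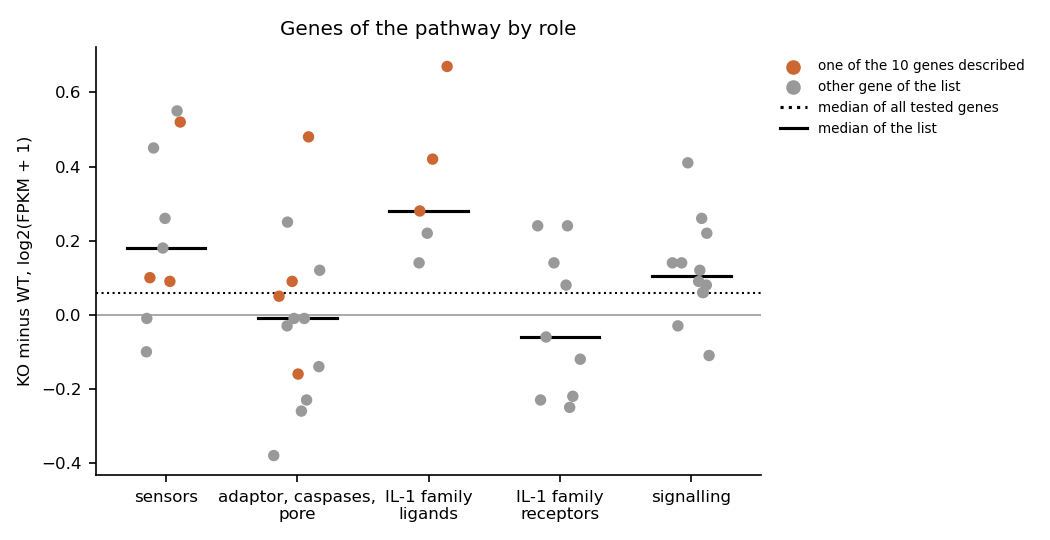
Difference between KO and WT of each tested gene of the 5 pathway lists, on the log2(FPKM + 1) scale, with points spread sideways for visibility. Orange points are the 10 genes described first, grey points are other genes of each list, black lines are list medians and the dotted line is the median of all genes tested, 0.06. The receptor list lies around −0.06 and the ligand list around 0.28.

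Marker lists of other blood cells were measured in the same libraries. The neutrophil list, led by Ctsg, Mpo and S100a8, summed to between 5882 and 7498 FPKM in WT and between 3924 and 8902 in KO, with pair medians of 0.00, −0.57 and 0.37 over its 13 tested genes. Levels within the list differed widely. S100a9 was at 390 to 1484 FPKM and Ngp at 78.5 to 270, but Cxcr2 was at 1.78 to 6.09 and Mmp9 at or below 0.49. The sum thus follows its most abundant genes and does not measure how many neutrophils were present. Ctsg encodes cathepsin G, a granule protease that can cut the interleukin-1 beta precursor outside the inflammasome, and read 1229, 2387 and 1873 FPKM across WT 1 to WT 3, against 899, 1829 and 2142 across KO 1 to KO 3. The monocyte, macrophage and dendritic sum was 1634 in WT and 1632 in KO in pair 2, and 2278 in WT and 2136 in KO in pair 3. Lyz2 adds the most to that sum, at 1062 FPKM in WT 2 and 984 in KO 2. The median difference of the tested genes of that list was 0.33 in pair 2 and −0.01 in pair 3, so a level sum does not mean level markers. The part of cell composition in the Gsdmd values was not tested. The lymphoid list summed to between 91 and 114 FPKM in WT and between 81.6 and 98.9 in KO, led by Nkg7 and Il7r. Of its genes, Cd3e was listed at 0 in all 6 libraries, Ms4a1 lay at or below 0.03 FPKM and Cd79a at or below 1.1. The erythroid list summed to between 36.4 and 51.1 FPKM in WT and between 20.8 and 46.6 in KO.

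**Figure D5:**
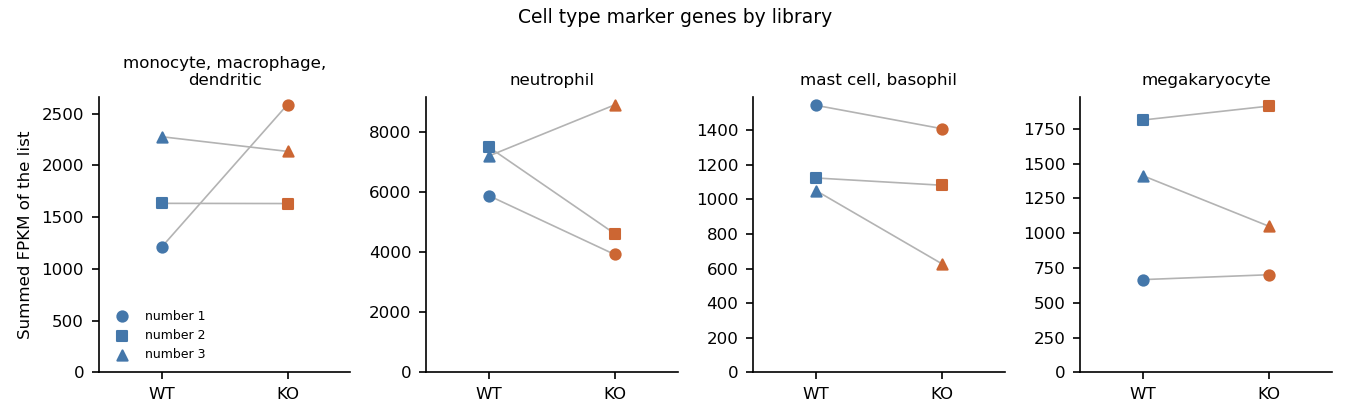
Summed FPKM of 4 lists of cell type markers in each library, WT in blue and KO in orange, with symbols for the replicate number and grey lines joining pairs, each on its own linear axis from 0. The monocyte, macrophage and dendritic sum goes from 1211 in WT to 2589 in KO within pair 1. It is nearly level in pair 2, where Lyz2 leads the sum and the median difference of the tested genes of the list was 0.33. The megakaryocyte sum, led by Pf4, is lowest in both libraries numbered 1.

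Genes whose profile over the 6 libraries was most like that of a member were sought among 8485 tested genes with a mean of at least 5 FPKM, by Pearson's r of log2(FPKM + 1). With Nlrp3 these were Birc3, an NF-kB-controlled ubiquitin ligase (r = 0.984), Pnisr (r = 0.982) and Adrbk2 (r = 0.982). With Il1b they were Fam134b (r = 0.997), Rabggtb (r = 0.996) and Chac1 (r = 0.987), and with Casp1 Gtf2e2 (r = 0.996), Ppm1k (r = 0.995) and Haus1 (r = 0.995). Spearman's rho was between 0.83 and 1.00. Without the 2 libraries farthest from the member's median, r fell to between 0.45 and 0.88 for the genes named with Il1b and to between 0.85 and 0.88 for those with Nlrp3, and was 0.99 or above for those with Casp1. These values are the highest of many over 6 libraries that share replicate numbers and depth, and they describe the libraries without a test.

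Some of the values rest on genes that overlap others in RefSeq's annotation: Il1b with the long noncoding RNA gene Il1bos, Il18 with Bco2 and Tex12, Aim2 with Cadm3, and Nlrc4 with the pseudogene Gm4708. These overlaps are of whole gene spans, and shared exons were not examined. The strand setting of the libraries is not given in the sources used here, so how reads of any shared stretch were assigned is not known. The values are RSEM estimates, and for Casp1 and Casp4, relatives on the same chromosome, the shares depend on how reads common to both were split.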

How the data were processed

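RNA of 3 WT and 3 KO samples was analysed; groups and replicate numbers came from the sample titles. The authors deposited FPKM per gene symbol with 2 decimals. Per the submitters' processing notes, FastQC, Trimmomatic 0.39, STAR 2.7.0a, RSEM 1.2.31 and mouse build mm9 were used; what settings and gene models they had is not given in the sources used here. Of 24410 symbols, 7372 were listed at 0 in every library.

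Genotypes were compared with limma 3.58.1 under R 4.3.3 (a linear model per gene and eBayes with a trend, two-sided) on log2(FPKM + 1) of the 11249 genes that reached 1 FPKM in 3 or more libraries; p-values were adjusted over all of them by Benjamini-Hochberg, with a threshold of 0.05. It was tested on simulated data. Differences on this scale understate low genes. For depth, the steps between low FPKM values were read for genes with 1 GENCODE transcript, taking effective length as length minus 200 bases. That offset was the best-fitting of those tried, and the limit of fit for calling a depth clear was set after the fits were seen. That annotation is on another build, so depths are approximate and no interval was computed from them.

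After each genotype mean was subtracted, the WT and KO libraries numbered 1, 2 and 3 correlated over genes with r = 0.81, 0.59 and 0.38. The meaning of a replicate number is not given in the labels, though number 3 read as female and numbers 1 and 2 as male by Ddx3y and Xist. From these correlations the numbers were taken as pairs, and a second fit held them as a block. The alternatives were another pseudocount, filter, scaling or variance trend, the block, and leaving out each library. Leaving out each pair, and the block with a common FPKM sum, were added after seeing the data.

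Named genes are Txnip, the 10 genes, the 4 of smallest p in each pathway list, the 3 most abundant of each marker list and the 3 most similar to Nlrp3, Il1b and Casp1. Others (Ddx3y, Xist, Gp5, Gp1bb, Itgb3, Casp12, Il33, Il18bp, Cd3e, Ms4a1, S100a9, Ngp, Cxcr2, Mmp9 and the ligand genes listed at 0) were named after their values were seen. Nlrp1a and overlapping genes are named without values. The members and lists were chosen with earlier results of these data known. The ratios, the split of variation and the promoter motifs were chosen after values had been seen: more patterns than the 4 motifs given were looked for first, with their matches in view, and the NF-kB pattern was changed to the consensus. Ly6g, a listed neutrophil marker, was not among the symbols of the table analysed here.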

Additional observations from a re-analysis of the deposited data

How the results depend on the processing

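The count of 0 of the 10 genes called held in all alternatives but 1: with the replicate block and without pair 2, the count was 1, Nlrp3 (difference 0.73; limma, adjusted p = 0.0415), where 4 libraries were left. Over the pathway lists the count was then also 1, and it was 1 with the block and without pair 3, for Mefv (0.90; limma, adjusted p = 0.0127). With the replicate block on all 6 libraries the counts stayed 0, and the smallest adjusted p of the 10 genes was 0.637, for Gsdmd. Over all genes the count of calls was 2, and 1 to 3 with another filter, pseudocount, scaling or trend, with the block, or without 1 library (1 with no filter and without WT 2, WT 3 or KO 3). It was 53 with the block and a common FPKM sum, and with the block 36 without pair 1, 142 without pair 2 and 118 without pair 3, so the Nlrp3 and Mefv calls came in fits that called many more genes. The cause of these differences was not tested. The Txnip call held in all alternatives. With libraries left out, the median of the 10 genes lay between 0.17 and 0.40 (0.40 without WT 2); with the block it was 0.01 without pair 1. It was 0.36 with a common FPKM sum and 0.10 at a filter of 5 FPKM, which dropped Nlrc4, Il18 and Il1rn.

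Gsdmd, Il1rn and Nlrp3 kept their direction in every alternative run, between 0.35 and 0.65, 0.48 and 1.12, and 0.01 and 0.95. Others turned. Scaling turned Casp4 (0.02 with a common FPKM sum, with or without the block) and Nlrc4 (−0.02 with quantile normalization, with or without the block). With the block and without pair 1, Il18 (−0.02), Il1b (−0.03), Nlrc4 (−0.06), Pycard (−0.05), Il1a (−0.12), Il1r2 (−0.13) and Naip6 (−0.01) turned, as did Casp1 (−0.03) without pair 3 and Irak4 (−0.01) without pair 2. When 1 library was left out, the differences ranged from −0.06 to 0.20 for Aim2, −0.06 to 0.30 for Casp1, −0.49 to 0.19 for Casp4, −0.59 to 0.84 for Il1b, 0.19 to 0.65 for Il18, −0.14 to 0.20 for Nlrc4 and −0.11 to 0.31 for Pycard. Among pathway genes they ranged from −0.17 to 0.32 for Il1a, −0.09 to 0.78 for Il1r2, −0.11 to 0.53 for Naip6, −0.08 to 0.81 for Nlrp1b and −0.02 to 0.24 for Pstpip1. Low values limit Il18 and Il1rn, which lie near 1 FPKM; what depth adds to their spread was not tested.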
